A study of Homo sapiens with 12 samples.

Results

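The histone genes described here belong to the group whose messenger RNAs can carry a poly(A) tail. They were chosen by name: H2AC6, H2BC12, H2BC5, H2BC21, H1-2, H4C8 and H2AZ1. A gene table for the array gave each of these 7 genes at least 1 probe set of its own, 10 probe sets of the 54675 on the array. A probe set is a group of short probes summarised to 1 value. Of the 10, 7 exceeded a log2 value of 4, taken here as the floor, in at least 3 of the 12 arrays, and they represent 5 genes.

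The arrays measured HK-2 cells, a human proximal tubule epithelial line that was immortalised in culture. All cells grew in the same EGF- and insulin-containing medium and were treated close to confluence. The 4 groups were Di for 12 h, its vehicle control at 12 h, Di for 48 h and its control at 48 h, each with 3 biological replicates (n = 3 for every group value). The design text places Di in a study of compounds screened for kidney toxicity. What Di is and how much was used are not given in the sources used here. The study asks which genes Di changes. The histone genes were chosen with their behaviour in Di at 12 h already known. For these genes, values at 12 h and differences that use a 12 h array are therefore descriptions without a test. The test given is that of Di against control at 48 h. Its SE comes from a fit of all 12 arrays, so the spread of Di at 12 h enters it. For genes of the other lists, counts of calls at 12 h and between the controls come from the same fit.

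Most core histone genes are transcribed in S phase, when new DNA has to be packed, and their messenger RNAs end in a stem-loop that the stem-loop binding protein SLBP recognises, not in a poly(A) tail. Some of these genes also yield polyadenylated transcripts, which persist in cells that have left the cycle or differentiated. Replacement histones such as H2A.Z, encoded by H2AZ1, are made from ordinary polyadenylated messenger RNAs outside as well as inside S phase. Labelling for this kind of array normally starts at the poly(A) tail. The arrays do not show which 3' end a transcript had, so the form measured cannot be told apart. Members of a histone family are nearly identical in sequence, and probe sets with the suffix _s_at or _x_at may also pick up relatives.

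Promoter sequences were matched for all 7 genes in RefSeq's table for the build GRCh38.p14. Those of 4 genes with groups that separated without overlap at 48 h are printed, so that the elements found in them can be compared. Each shows the 250 bases before the transcription start on the gene's own strand, and capitals mark the searched elements. These were the octamer ATTTGCAT, the CCAAT box CCAAT, the TATA box TATAAA and the E2F spellings TTTGGCGC, TTTCCCGC, TTTCGCGC and TTTGCCGC, each on both strands. The H2AC6 window lies at chr6:26123922-26124171 (plus strand), that of H2BC12 at chr6:27146859-27147108 (minus strand), that of H1-2 at chr6:26056471-26056720 (minus strand) and that of H2AZ1 at chr4:99950276-99950525 (minus strand).
H2AC6: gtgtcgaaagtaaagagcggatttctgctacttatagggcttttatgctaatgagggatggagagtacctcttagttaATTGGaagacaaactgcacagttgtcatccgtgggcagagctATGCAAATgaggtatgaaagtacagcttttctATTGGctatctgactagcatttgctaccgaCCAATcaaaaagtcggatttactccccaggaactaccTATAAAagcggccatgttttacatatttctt
H2BC12: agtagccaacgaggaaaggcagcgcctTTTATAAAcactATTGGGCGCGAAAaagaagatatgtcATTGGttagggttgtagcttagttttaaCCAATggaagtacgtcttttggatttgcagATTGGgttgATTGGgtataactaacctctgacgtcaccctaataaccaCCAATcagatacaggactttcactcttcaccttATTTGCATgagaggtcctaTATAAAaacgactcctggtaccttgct
H1-2: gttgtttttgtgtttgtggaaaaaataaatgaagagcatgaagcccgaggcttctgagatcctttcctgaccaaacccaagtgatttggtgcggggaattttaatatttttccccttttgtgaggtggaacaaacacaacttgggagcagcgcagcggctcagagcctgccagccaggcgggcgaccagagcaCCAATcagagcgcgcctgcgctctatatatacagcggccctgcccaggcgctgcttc
H2AZ1: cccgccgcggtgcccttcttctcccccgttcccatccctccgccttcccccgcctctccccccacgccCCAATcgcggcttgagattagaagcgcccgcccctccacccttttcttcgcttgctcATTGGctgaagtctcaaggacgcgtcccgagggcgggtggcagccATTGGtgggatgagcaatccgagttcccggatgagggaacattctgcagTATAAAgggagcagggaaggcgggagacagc

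H2AC6 held 1 octamer, at positions -130 to -123 from the start and on the opposite strand, with 3 CCAAT boxes and a TATA box at -31 to -26. H2BC12 held its octamer at -46 to -39, with 6 CCAAT boxes, 3 TATA matches of which 2 overlap, and 1 E2F match directly next to a CCAAT box. The only match in H1-2 was 1 CCAAT box at -57 to -53. H2AZ1 held 3 CCAAT boxes and a TATA box at -31 to -26, and no octamer. Among the genes not printed, H2BC21 had an octamer at -46 to -39, H2BC5 had 4 CCAAT boxes and 2 TATA matches, and H4C8 had none of the searched spellings. Of 35116 RefSeq promoter windows of the same length, 1.63% held the octamer, 32.0% a CCAAT box, 10.7% the TATA box and 2.79% an E2F spelling. A match describes letters and is not evidence that a factor binds there. Several windows are shared with a neighbour on the other strand. The start of H2BC4, an H2B gene, lies 246 bases from that of H2AC6, that of H2AZ1-DT 219 bases from H2AZ1, that of H2AC20, an H2A gene, 236 bases from H2BC21, and that of LOC124901287 146 bases from H4C8. H2BC4 had its own probe set, which stayed between 2.91 and 3.20 in all 12 arrays, under the floor.

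**Figure D1:**
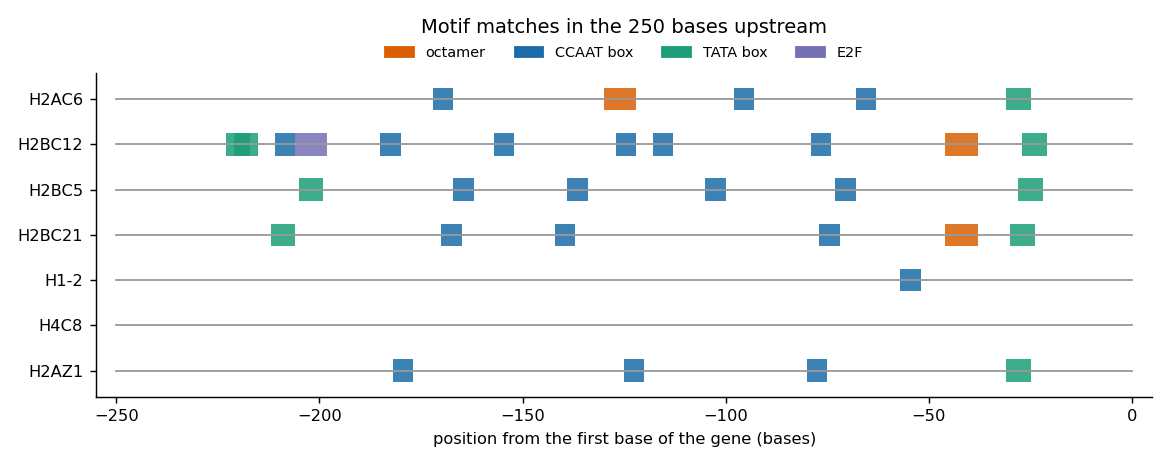
Elements found in the 250 bases before the start of 7 histone genes. The x axis is the distance from the transcription start in bases and each mark is 1 match of an octamer, CCAAT box, TATA box or E2F spelling. Octamers appear in H2AC6, H2BC12 and H2BC21.

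The arrays were alike in scale, with medians of 2.97 to 3.06 on the log2 scale, and arrays of 1 group correlated at 0.986 to 0.996 across probe sets. Of 14 genes listed as proximal tubule and epithelial markers, 6 passed the level filter (KRT8, KRT18, KRT19, CDH6, PAX8 and VIM). Of these, VIM is not specific to epithelium. Defining genes of mature proximal tubule such as LRP2, CUBN, AQP1 and SLC34A1 did not pass. At 48 h CDH6 (-3.49) and KRT19 (-1.19) fell and PAX8 (0.39) rose on the log2 scale. None of the endothelial and leukocyte markers passed (0 of 9). Of 7 fibroblast markers 3 passed, COL1A1, DCN and LUM, with a summed log2 level of 11.34 to 11.68 at 12 h, 10.39 to 10.49 in control at 48 h and 9.37 to 9.73 in Di at 48 h. DCN (-1.01) and LUM (-0.72) fell at 48 h, and their part in the histone values was not tested. Di against control at 48 h moved a large part of the transcriptome: limma with Benjamini-Hochberg adjustment called 21.2% of the 21715 kept probe sets higher and 24.8% lower at an adjusted p under 0.05.

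Among the histone probe sets, Di at 48 h was marked by decreases in H2BC12 and H2AZ1. Of 7 probe sets 0 were called higher and 3 lower, where 24.8% of all kept probe sets were called lower. Fitted on the 48 h arrays alone, 1 was called higher and 4 lower, beside 4696 and 5391 of 21715 kept probe sets. H2BC12 fell 1.74-fold against control, and the probe sets of H2AZ1 fell 1.46-fold and 1.36-fold. The median difference over the 7 was -0.38 on the log2 scale, beside -0.01 over all kept probe sets. That median is the value of H1-2, which was not called and whose mean lay under the floor in Di at 48 h. Both probe sets of H2AZ1 count in it. In RNA from a whole culture, fewer cells of a type and less RNA per cell cannot be told apart. S phase genes also fell at 48 h, with 28 of 32 measured genes called lower and a median of -1.33, and the part of that shift in the histone values was not tested.

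**Figure D2:**
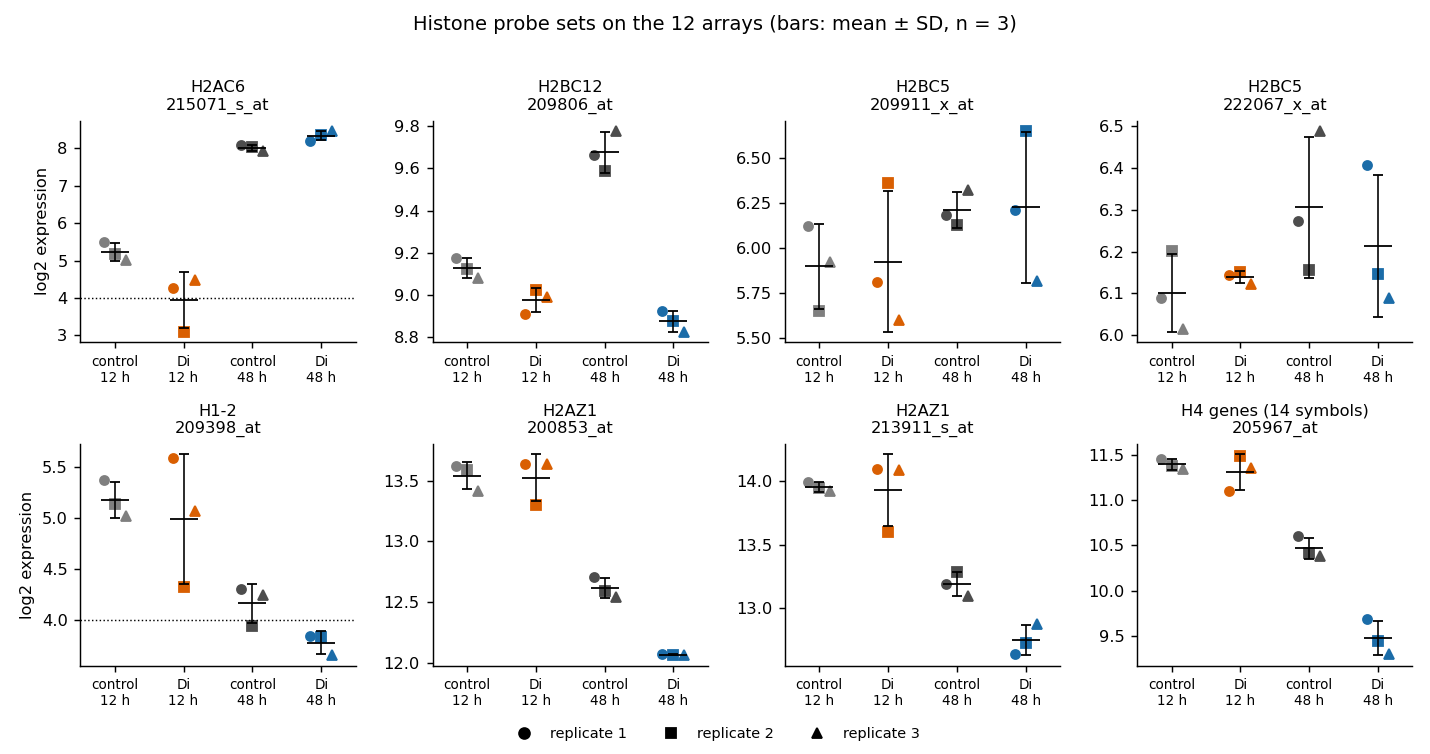
Deposited log2 values of the 7 kept histone probe sets in each array, by group. The eighth panel shows the H4 probe set shared by 14 symbols. Each point is 1 array and each bar a group mean of 3 arrays with its SD, and the dotted line marks the floor of 4. H2AC6 lies between 3.08 and 5.49 at 12 h and between 7.93 and 8.47 at 48 h, and H2BC12 stands highest in control at 48 h.

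H2AC6 encodes an H2A protein of the nucleosome core and lies in the large histone cluster. In control at 12 h its probe set, 215071_s_at, read 5.49, 5.18 and 5.01, and in Di at 12 h it read 4.28, 3.08 and 4.47. In control at 48 h it read 8.08, 8.04 and 7.93, and in Di at 48 h 8.20, 8.35 and 8.47. All 3 Di arrays lay below the controls at 12 h and all 3 lay above them at 48 h, so H2AC6 changed sides between the times. The difference at 12 h was -1.28 ± 0.288 (log2, SE), at least 2.34-fold lower because the Di mean of 3.94 ± 0.750 (SD) lay under the floor. Without replicate 2 of Di at 12 h, the lowest array, it was -0.85. At 48 h the difference was 0.33 ± 0.288 (1.25-fold), with a 95% interval of -0.31 to 0.96, and did not pass the test (limma, Benjamini-Hochberg adjusted p = 0.392). That SE pools the spread of all 4 groups. Fitted on the 48 h arrays alone, the SE was 0.0919 and H2AC6 was called higher (limma, Benjamini-Hochberg adjusted p = 0.0269).

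H2AC6 differed more between the times than between Di and control. Between the controls it stood 2.79 ± 0.288 higher at 48 h than at 12 h on the log2 scale (6.91-fold), and between the Di groups it stood at least 20.3-fold higher. The 4 groups ran in the order Di at 12 h, control at 12 h, control at 48 h and Di at 48 h, and no neighbouring groups in that order overlapped.

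H2BC12 encodes an H2B protein. Its probe set, 209806_at, read 9.18, 9.12 and 9.08 in control at 12 h and 8.91, 9.02 and 8.99 in Di at 12 h. It read 9.66, 9.59 and 9.78 in control at 48 h and 8.92, 8.88 and 8.82 in Di at 48 h. The control arrays stood higher at 48 h than at 12 h, while the Di arrays of the 2 times overlapped. At 12 h the Di arrays lay below the controls by a small margin, at -0.15 ± 0.0729 (log2, SE). At 48 h H2BC12 fell by 0.80 ± 0.0729 on the log2 scale, with a 95% interval of -0.96 to -0.64 (limma, Benjamini-Hochberg adjusted p = 5.65e-06). Between the controls it was 0.55 higher at 48 h (1.46-fold), and between the Di groups it differed by -0.10. In order of level, the Di groups were lowest and overlapped each other, followed by control at 12 h and control at 48 h without overlap.

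H2BC5, another H2B gene, was read by 2 probe sets, both of the _x_at kind that may pick up relatives. The values of 209911_x_at were 6.12, 5.65 and 5.92 in control at 12 h and 5.81, 6.36 and 5.60 in Di at 12 h. At 48 h they were 6.18, 6.12 and 6.32 in control and 6.21, 6.65 and 5.82 in Di. Di and control overlapped at both times. The difference at 48 h was 0.02 ± 0.226 (log2, SE), with a 95% interval of -0.48 to 0.51 (limma, Benjamini-Hochberg adjusted p = 0.965). The other probe set, 222067_x_at, lay between 6.01 and 6.49 in all 12 arrays, and its difference at 48 h was -0.09 ± 0.107 with an interval of -0.33 to 0.14 (limma, Benjamini-Hochberg adjusted p = 0.518). Both intervals include 0, and a p that misses the threshold does not show that H2BC5 was the same in Di and control. The groups of H2BC5 have no settled order.

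H2BC21, an H2B gene of a separate cluster on chromosome 1, was read by 202708_s_at at 2.13 to 2.22 in all 12 arrays. H4C8, which encodes the core histone H4, was read by 208180_s_at at 1.67 to 1.69 and by 232035_at at 2.49 to 2.63. None of these values reached the floor, so no level or difference is given for either gene.

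A further 5 probe sets carried H4C8 among 14 H4 symbols and could not be assigned to any of them. Of these 5, 2 passed the level filter. The brighter, 205967_at, read 11.45, 11.38 and 11.34 in control at 12 h and 11.09, 11.48 and 11.35 in Di at 12 h. At 48 h it read 10.60, 10.42 and 10.38 in control and 9.68, 9.44 and 9.30 in Di. This shared H4 signal lay lowest in Di at 48 h, and its groups at 12 h overlapped. It fell by 0.99 ± 0.121 on the log2 scale at 48 h (1.99-fold; limma, Benjamini-Hochberg adjusted p = 5.32e-05). The other, 208580_x_at, stood at -0.25 ± 0.101 and was not called (limma, Benjamini-Hochberg adjusted p = 0.0675). The part of H4C8 in these signals was not tested.

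H1-2 encodes a linker histone, which binds DNA where it enters and leaves the nucleosome. Its probe set, 209398_at, read 5.37, 5.14 and 5.02 in control at 12 h and 5.58, 4.32 and 5.06 in Di at 12 h. It read 4.30, 3.94 and 4.24 in control at 48 h and 3.85, 3.84 and 3.65 in Di at 48 h. Only 8 of these 12 values exceeded the floor, and none of those in Di at 48 h did. The arrays of 12 h overlapped, with a difference of -0.18 ± 0.250 (log2, SE), or 0.15 without replicate 2 of Di at 12 h. At 48 h all 3 Di arrays lay below the controls. The difference was -0.38 ± 0.250 with a 95% interval of -0.93 to 0.17, at least 1.12-fold, and did not pass the test (limma, Benjamini-Hochberg adjusted p = 0.244). It was called on the 48 h arrays alone (limma, Benjamini-Hochberg adjusted p = 0.0362). Between the controls H1-2 was -1.01 ± 0.250 at 48 h against 12 h (2.02-fold lower), the direction opposite to that of H2AC6 and H2BC12.

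H2AZ1 encodes H2A.Z, a replacement histone placed in nucleosomes next to transcription start sites by dedicated exchange complexes. Its probe set 200853_at read 13.62, 13.59 and 13.41 in control at 12 h and 13.63, 13.30 and 13.64 in Di at 12 h. At 48 h it read 12.71, 12.60 and 12.55 in control and 12.08, 12.07 and 12.07 in Di. The Di arrays at 48 h were nearly identical to each other and lay below every other array. Its probe set 213911_s_at read 13.99, 13.94 and 13.92 in control at 12 h and 14.09, 13.60 and 14.09 in Di at 12 h. At 48 h it read 13.19, 13.28 and 13.09 in control and 12.64, 12.73 and 12.88 in Di. Both probe sets gave the same picture, with overlapping groups at 12 h, lower controls at 48 h and the lowest values in Di at 48 h. At 48 h 200853_at fell by 0.55 ± 0.101 on the log2 scale (limma, Benjamini-Hochberg adjusted p = 0.000999). The other, 213911_s_at, fell by 0.44 ± 0.127 (limma, Benjamini-Hochberg adjusted p = 0.0147). The call of 213911_s_at was lost without replicate 1 of Di at 48 h (-0.39; limma, Benjamini-Hochberg adjusted p = 0.0521) and without replicate 2 of control at 48 h (-0.39; limma, Benjamini-Hochberg adjusted p = 0.0546). Between the controls the probe sets were 1.90-fold and 1.70-fold lower at 48 h, or -0.92 and -0.76 on the log2 scale, and between the Di groups -1.46 and -1.18.

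**Figure D3:**
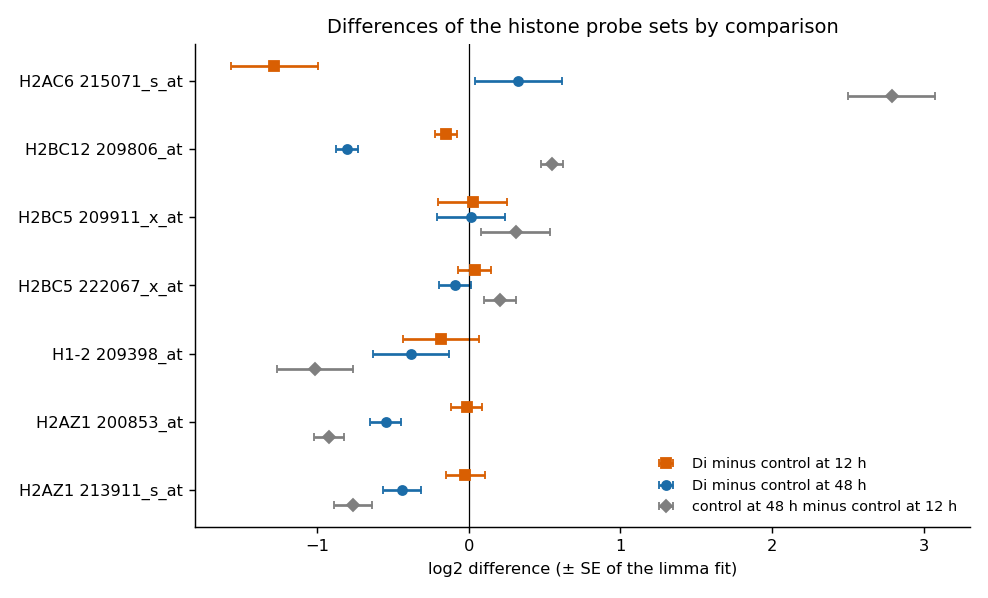
Log2 differences of the 7 kept histone probe sets for Di against control at 12 h, Di against control at 48 h and control at 48 h against control at 12 h. Points are fitted differences and bars their SEs. H2AC6 lies at -1.28 at 12 h, at 0.33 at 48 h and at 2.79 between the controls, while both H2AZ1 probe sets lie below 0 at 48 h and between the controls.

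Side by side, the histone genes did not share a direction over time. Between the controls 3 of 7 probe sets stood higher at 48 h without overlap, those of H2AC6, H2BC12 and 209911_x_at of H2BC5, and 3 stood lower, those of H1-2 and H2AZ1. Among all kept probe sets 29.3% stood higher and 32.2% lower without overlap in that comparison. Di against control at 48 h gave 1 probe set higher without overlap and 4 lower, beside 27.5% and 30.6% of all kept probe sets. At 12 h 0 were higher without overlap and 2 lower, H2AC6 and H2BC12, beside 12.6% and 20.1% of all. These comparisons share arrays, so they do not support one another.

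The arrays of Di at 12 h differed more among themselves than those of the other groups. The SD of the 3 arrays had a median of 0.283 over the 7 histone probe sets in Di at 12 h, against 0.110 in control at 12 h, 0.0966 in control at 48 h and 0.119 in Di at 48 h. Over all kept probe sets the median SD in Di at 12 h was 0.148, against 0.111 in each control group and 0.120 in Di at 48 h, so that group was also the widest there. The histone SDs in Di at 12 h ran from 0.0151 for 222067_x_at of H2BC5 to 0.750 for H2AC6. In 4 of 7 histone probe sets the largest of the 4 group SDs fell in Di at 12 h, beside 38.7% of all kept probe sets.

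Replicate 2 stood apart in that group. It was the array farthest from the group mean in 5 of 7 histone probe sets, beside 59.9% of all kept probe sets, and was low for H2AC6, H1-2 and both probe sets of H2AZ1 but high for 209911_x_at of H2BC5. Its root mean square deviation from the group mean was 0.468 over the histone probe sets and 0.263 over all. H1-2 spread in both directions, with replicate 1 at 5.58 and replicate 2 at 4.32. Without replicate 2 the 12 h comparison had 2 histone probe sets higher without overlap, both of H2AZ1 at 0.10 and 0.14, and 2 lower, H2AC6 at -0.85 and H2BC12 at -0.18, and 50.0% of all kept probe sets did not overlap in that comparison of 2 against 3 arrays. RNA integrity was read from the excess of actin's 3' over its 5' control probe set, a log2 gap of 1.32, 0.950 and 1.40 in the arrays of Di at 12 h, with replicate 2 lowest. That group averaged 1.22 ± 0.239 (SD) and its controls 1.71 ± 0.178, where an exact two-sided permutation test gave p = 0.1, the lowest value possible for groups of 3. The gap averaged 1.41 ± 0.0776 under Di and 1.33 ± 0.128 under vehicle at 48 h (exact two-sided permutation p = 0.5). The corresponding gap of GAPDH was -0.0120, 0.166 and 0.00110 in Di at 12 h, with replicate 2 highest (exact two-sided permutation p = 0.3 against its controls). The part of RNA integrity in the 12 h values was not tested.

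**Figure D4:**
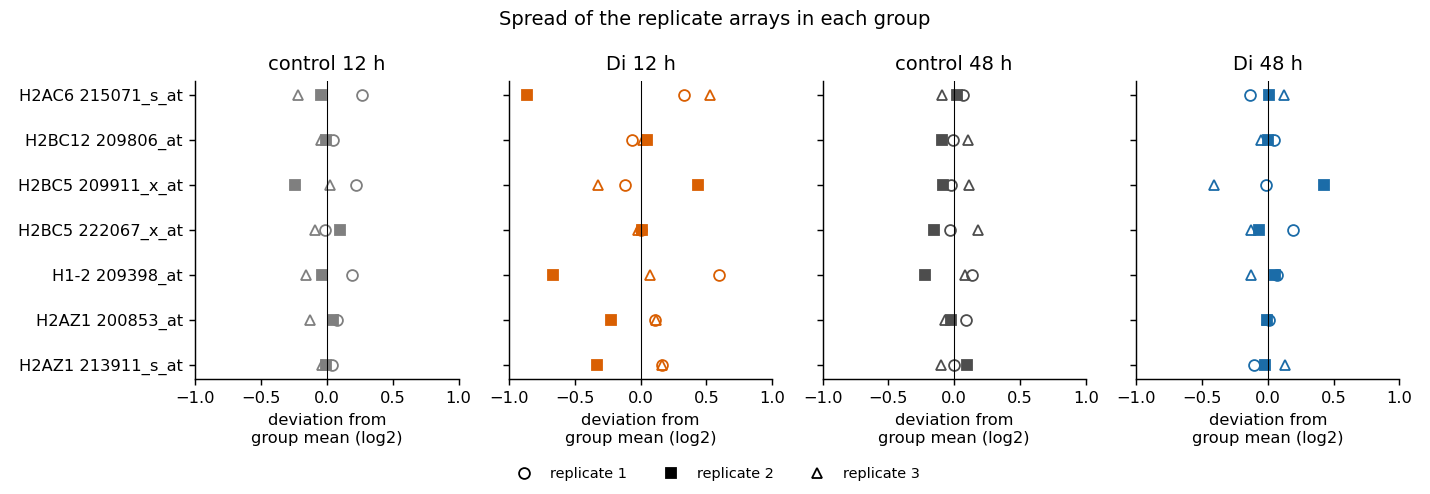
Deviation of each array from its group mean on the log2 scale for the 7 kept histone probe sets, by group. Each point is 1 probe set in 1 array. In Di at 12 h replicate 2 is low for H2AC6, H1-2 and H2AZ1 and high for 209911_x_at of H2BC5.

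Of 63 other replication-dependent histones listed, 5 had a kept probe set assigned to that gene alone and count as measured. The others lay under the floor or had no probe set of their own. At 48 h 0 of the 5 were called higher and 3 lower, with a median of -0.32. The shares to set beside this list and those below at 48 h are 21.2% of all kept probe sets called higher and 24.8% lower. For this list the count called higher was 1 with quantile normalisation and when replicate 1 of Di at 48 h was left out. Its count called lower was 1 at a floor of 6 and without _x_at probe sets, where only 2 of its genes were measured. H2AC25 is another H2A gene. Its mean at 12 h was 5.98 in control and 6.12 in Di. From 12 h to 48 h it rose by 2.02 in control and by 1.06 in Di on the log2 scale. Di at 48 h stood at 7.18, lower than control at 48 h by 0.82 ± 0.128 (limma, Benjamini-Hochberg adjusted p = 0.000311). The H2B gene H2BC6, read by an _x_at probe set, fell by 0.63 ± 0.0782 (limma, Benjamini-Hochberg adjusted p = 6.16e-05). H4C11, an H4 gene also read by an _x_at probe set, fell by 0.32 ± 0.100 (limma, Benjamini-Hochberg adjusted p = 0.0223), a call that was lost with trend and robust moderation, with quantile normalisation, without replicate 1 or 3 of Di at 48 h and without any 1 control array at 48 h (adjusted p between 0.0506 and 0.0846). H2BC9 stood at -0.25 and H3C6 at 0.48, and neither was called.

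The other replacement histones moved with H2AZ1. Of 10 listed genes 8 were measured, and at 48 h 0 were called higher and 7 lower, with a median of -0.54. CENPA, the histone H3 variant of centromeres, fell by 1.15 ± 0.162 on the log2 scale (limma, Benjamini-Hochberg adjusted p = 0.000153). H2AX, the H2A variant that is phosphorylated at DNA breaks, fell by 1.03 ± 0.0977, or 2.04-fold (limma, Benjamini-Hochberg adjusted p = 7.87e-06). The linker histone H1-10 fell by 0.83 ± 0.139 (limma, Benjamini-Hochberg adjusted p = 0.000496). H2AZ2, which encodes a second form of H2A.Z, fell by 0.55 ± 0.0753 (limma, Benjamini-Hochberg adjusted p = 0.000127). The size of that fall depended on the processing. The H2AZ2 difference ran from -1.18 to -0.52 over all alternatives, and from -0.57 to -0.52 when 1 array was left out. Between the controls 7 of the 8 were also called lower at 48 h, with a median of -0.65, where 22.4% of all kept probe sets were called higher and 25.4% lower.

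Genes for the transcription and 3' end processing of histone messenger RNA did not move together. Of 16 listed genes 12 were measured, and at 48 h 6 were called higher and 3 lower. ZNF473, a zinc finger protein of the machinery that cuts histone messenger RNA, rose by 1.77 ± 0.162 on the log2 scale, or 3.42-fold (limma, Benjamini-Hochberg adjusted p = 5.72e-06). CSTF2, a cleavage stimulation factor of polyadenylation, rose by 0.68 ± 0.108 (limma, Benjamini-Hochberg adjusted p = 0.000385). CASP8AP2, a protein of the histone locus body, fell by 0.59 ± 0.0942 (limma, Benjamini-Hochberg adjusted p = 0.000393). NPAT, the coactivator of histone gene transcription in that body, fell by 0.55 ± 0.149 (limma, Benjamini-Hochberg adjusted p = 0.0111). SLBP, named after its values were seen because it binds the stem-loop, fell by 0.51 ± 0.117 (limma, Benjamini-Hochberg adjusted p = 0.00429). At 12 h 0 of the 12 were called higher and 1 lower, where 4.9% of all kept probe sets were called higher and 6.97% lower. Higher calls made up 41.3% of the calls at 12 h, and 52.6% with quantile normalisation.

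Histone chaperones, which carry new histones to DNA, had 27 of 29 listed genes measured, with 1 called higher and 12 lower at 48 h and a median of -0.12. ASF1B, a chaperone of histones H3 and H4 in dividing cells, fell at least 4.35-fold (limma, Benjamini-Hochberg adjusted p = 2e-09), since its mean in Di at 48 h lay under the floor. Its relative ASF1A, the 1 gene called higher and named for that reason, rose by 0.99. ANP32E, which removes H2A.Z from chromatin, fell by 1.55 ± 0.0834 (limma, Benjamini-Hochberg adjusted p = 1.02e-07). HJURP, the chaperone of CENPA, fell by 1.22 ± 0.0729, and NASP, which stores histones H3 and H4, by 1.02 ± 0.0775. At 12 h 2 of the 27 were called higher and 9 lower, where 4.9% of all kept probe sets were called higher and 6.97% lower.

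S phase genes had the lowest median of these lists at 48 h, at -1.33 on the log2 scale. Of 32 measured genes 1 was called higher and 28 lower at that time (limma, Benjamini-Hochberg). MCM7, a subunit of the replicative helicase, fell 8.70-fold (-3.12 ± 0.104), and RRM2, a subunit of ribonucleotide reductase, fell by 3.07 ± 0.110. CCNE2, a cyclin of the entry into S phase, fell by 2.70 ± 0.172 (6.50-fold), and CDT1, which loads the helicase, fell at least 2.51-fold. The gene called higher and named for that reason was RFC5, a clamp loader subunit, at 0.72. With the mean of all kept probe sets of each gene, 0 S phase genes were called higher at 48 h, so that call was lost. Between the controls 0 were called higher and 29 lower at 48 h, with a median of -1.51. Of all kept probe sets 22.4% were called higher and 25.4% lower in that comparison. H2AZ1 and H1-2 stood lower at 48 h in the controls too, while H2AC6 and H2BC12 stood higher. Of the 5 other replication-dependent histones measured, 1 was called higher between the controls, H2AC25 at 2.02, and 0 were called lower. H2BC6 stood at 0.05, H4C11 at -0.13 and H2BC9 at -0.59, and H3C6, with both control means under the floor, at 0.48. The brighter shared H4 probe set stood lower, at -0.92 without overlap.

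**Figure D5:**
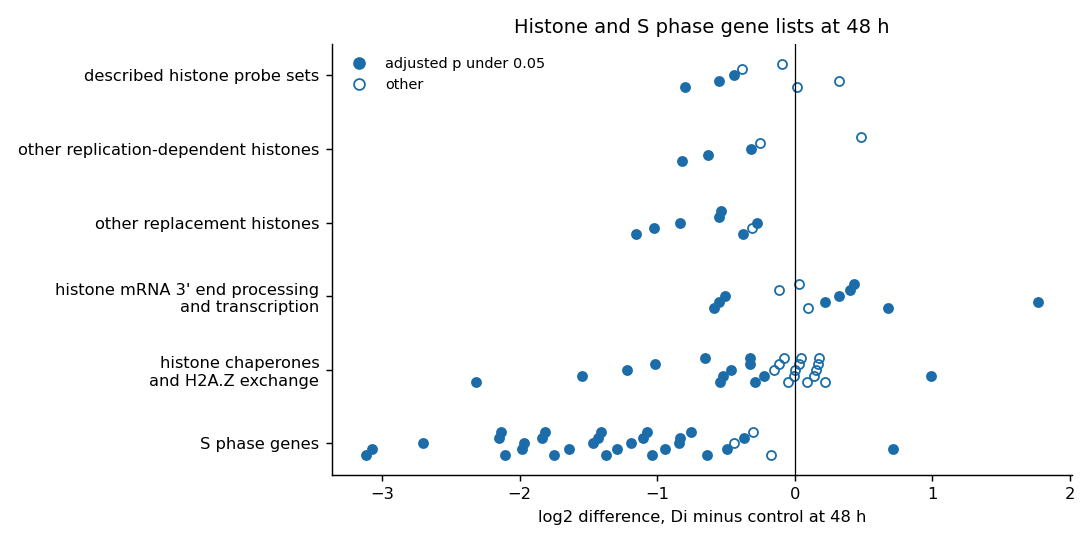
Log2 differences of Di against control at 48 h for the 7 kept histone probe sets and the measured genes of the other lists, 1 row of points per list. Each point is 1 probe set, and filled points passed an adjusted p of 0.05. The median lies at -0.54 for other replacement histones and at -1.33 for S phase genes.

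The genes whose patterns over the 12 arrays were most like each histone gene were sought among the other kept probe sets with 1 gene symbol. The correlations describe these arrays, which share 4 groups. H2AC6 was most like FOXP2, a transcription factor (r = 0.994), and PLEKHA6 (r = 0.993). H2BC12 was most like MXI1, an antagonist of MYC (r = 0.984), and CTDSP2 (r = 0.976). H1-2 was most like FANCM, a DNA repair helicase (r = 0.978), and GPR180 (r = 0.966). Their SDs in Di at 12 h were 0.624 and 0.636 beside 0.635 for H1-2, and those arrays entered the r. FANCM was read by an _x_at probe set whose group mean exceeded the floor only in control at 12 h (4.31). H2AZ1, by 213911_s_at, was most like the mitotic checkpoint gene MAD2L1 (r = 0.998) and the deoxycytidine kinase gene DCK (r = 0.995). For 222067_x_at of H2BC5 the nearest were STARD10 (r = 0.927) and HOXA-AS3 (r = 0.893).

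Among the histone genes themselves, the probe sets of H2AZ1 followed each other (r = 0.987 over 12 arrays), and H1-2 followed both of them (r = 0.934 and 0.933). H2AC6 ran opposite to H2AZ1 (r = -0.888 and -0.852) and was only loosely related to H2BC12 (r = 0.319). The probe sets of H2BC5 had r = 0.344 with each other. These values are descriptions over arrays that fall into 4 groups.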

How the data were processed

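Total RNA of HK-2 cells was hybridised to 12 Affymetrix arrays. The authors deposited log2 expression values made with GCRMA, per the submitters' processing notes (version not given in the sources used here). No further normalisation was applied. The array gene table gave 41091 probe sets 1 gene, 1801 several and 11777 none, and older symbols were replaced through RefSeq. Of 54613 non-control probe sets, the 21715 above a log2 value of 4 in at least 3 arrays were kept.

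limma 3.58.1 in R 4.3.3 (lmFit, eBayes, two-sided) fitted 1 mean per group to all 12 arrays, with Benjamini-Hochberg adjustment over all kept probe sets and a threshold of 0.05. The script was tested on simulated data. Errors are SEs of that fit or, beside group means, SDs of 3 arrays. A fold against a mean under 4 is a bound against that floor. The number of arrays limits the precision, since arrays give no counting depth. Labels call the replicates biological without naming separate cultures, so p-values measure the spread between these arrays. No array duplicated another.

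The histone genes and the lists were chosen with earlier results of these data known. All 7 histone genes are named, and 1 further item is not reported here. From each other list, up to 4 genes with the largest called, non-overlapping change at 48 h are named. The genes most alike were the 2 with the highest Pearson r. Alternatives covered the filter, moderation, scaling, the arrays fitted, the replicate block, the probe set choice and each array left out. Figures used matplotlib 3.10.9.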

Additional observations from a re-analysis of the deposited data

Results flagged for a closer look

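H2AC6 drew attention because its Di arrays all lay below the controls at 12 h and all lay above them at 48 h. The difference between its log2 differences, 48 h minus 12 h, was 1.61. Whether the response differed between the times was not tested, since the 12 h values entered the choice of the gene.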

How the results depend on the processing

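Of 149 recomputed log2 differences of the histone probe sets at 48 h, 145 fell on the same side of the threshold as reported, 2 lost the call and 2 gained it. Of the 149, 144 kept their sign, and 0 called values reversed. The count of histone probe sets called higher was 1 with only the arrays of the time point, and the count called lower ranged from 2 to 4. The count of all features called was 5413 with 1 probe set per gene and 5486 with the mean of all kept probe sets, both of 10626 genes, and 8580 to 10886 when 1 array was left out. Of 522 values of named genes from the other lists, 11 lost the call, those of H4C11 and LUM, and 0 reversed. Of 308 list counts, 20 moved by more than 1.5 times, all of them counts of 3 or fewer in the reported fit. LUM lost its call with no filter and without replicate 1 of Di or 1 or 2 of control at 48 h. Chaperones called higher numbered 3 when replicate 3 of Di at 48 h was left out. They numbered 2 when replicate 1 of the 12 h controls or replicate 2 of the 48 h controls was left out. No causes of these shifts were tested. At a floor of 6, H1-2 gave no value.

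Same-numbered arrays did not deviate together (r of 0.155, -0.0449 and -0.204 at 12 h, and -0.0330, 0.128 and -0.266 at 48 h), so the numbers were not taken as pairs. With the replicate block 9256 probe sets were called, and 3 histone probe sets were lower and 0 higher, as without it. H2AC6 and H1-2 lie under the floor in 1 group each, which limits their folds there to bounds.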
